A study of Mus musculus with 6 samples.

Results

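Laminins, nidogen and agrin are proteins of the basement membrane, the thin matrix sheet that lies between the lung epithelium and the mesenchyme and around vessels, muscle cells and nerves. The genes Lama1, Lama2, Lama3, Lama4, Lama5, Lamb1, Lamb2, Lamc1, Nid1 and Agrn were followed here through every probe set whose only gene symbol in the array's annotation was one of these names. These are 10 of the 8251 genes that the annotation names in this way, read by 15 of the 12488 probe sets, with 2 probe sets (called brighter and dimmer here, by mean signal) each for Lama4, Lama5, Lamb1, Lamc1 and Agrn and 1 for each of the others. The genes were chosen by their family with the signal differences of this same comparison already known, so the differences between regions and their adjusted p-values below describe these genes and are no independent evidence about them.

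The samples were dissected from the lungs of mouse embryos on embryonic day E11.5. Total RNA from the branching region, where side branches form, came from the right and left lungs together and was measured on 3 arrays. Total RNA from the non-branching region, made up of the main bronchi and a part of the trachea, was measured on another 3 arrays. Strain, genotype, sex and the number of embryos behind a sample are not given in the sources used here, so the p-values below cover the spread among these 6 samples, and it may be no more than technical. Both regions hold several tissues, so in this bulk RNA fewer cells of a type and less RNA per cell cannot be told apart.

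Each laminin molecule is built from 1 alpha, 1 beta and 1 gamma chain, and the alpha chain carries the globular domains that bind integrins and dystroglycan on the cell surface. Nidogen links the laminin network to the collagen IV network. Agrin is a large heparan sulfate proteoglycan that binds laminin and dystroglycan and is best known for gathering acetylcholine receptors at the neuromuscular junction. In mice, the alpha chain encoded by Lama5 is needed for normal lung development.

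Values are deposited intensities on a linear scale. The arrays had been brought to a common level before deposit, with medians between 212 and 229. The background level used below is 147. It was taken from 19 probe sets for transcripts of bacteria and yeast, as the value under which 95% of their readings lay. On non-branching replicate 2 the median of these controls, 78.8, stood above the 19.8 to 40.7 of the other arrays. On non-branching replicate 3 the excess of the 3' over the 5' actin control, which grows as RNA degrades, was 0.75 on the log2 scale, against 0.20 to 0.49 elsewhere. The same measure for the Gapdh control did not stand out on that array, at -0.156 against -0.166 to 0.056 elsewhere. The fits by probe set, the ratios between probe sets of 1 gene and the counts and medians of gene lists were therefore also computed without each array. The fits on averaged probe sets, the ratios between genes, the summed signals and the nearest patterns were not. A probe set was called at a limma adjusted p under 0.05 over all 9316 probe sets tested, and log2 differences are branching minus non-branching with their standard error and 3 arrays per region.

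The 10 genes did not move as a group. The brighter Lama5 probe set was nearly 2-fold higher in the branching region, but the dimmer one, also above background, was not (log2 difference -0.03 ± 0.26). The brighter Lama4 probe set was higher in the non-branching region by a similar factor, and Agrn was higher there by a smaller factor. The values of the probe sets that read Lamb1, and of the brighter one of Lamc1, overlapped between the regions, and none of these probe sets was called. Of the 14 member probe sets tested, 1 was called higher in branching, where the share over all probe sets was 0.902%, and 2 were called lower, where that share was 1.13%. Over both directions the share of all probe sets was 2.03%. The 3 branching values lay above the 3 non-branching values for 2 of the 14, against 9.79% of all probe sets tested, and below them for 4 of the 14, against 11.0%. The 2 include Lama3, whose non-branching values were all below background. The 4 include both probe sets of the 1 gene Agrn. They also include the dimmer Lamc1 probe set, whose branching values were all below background. The median log2 difference of the 14 was -0.18, against -0.0046 over all probe sets tested.

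**Figure D1:**
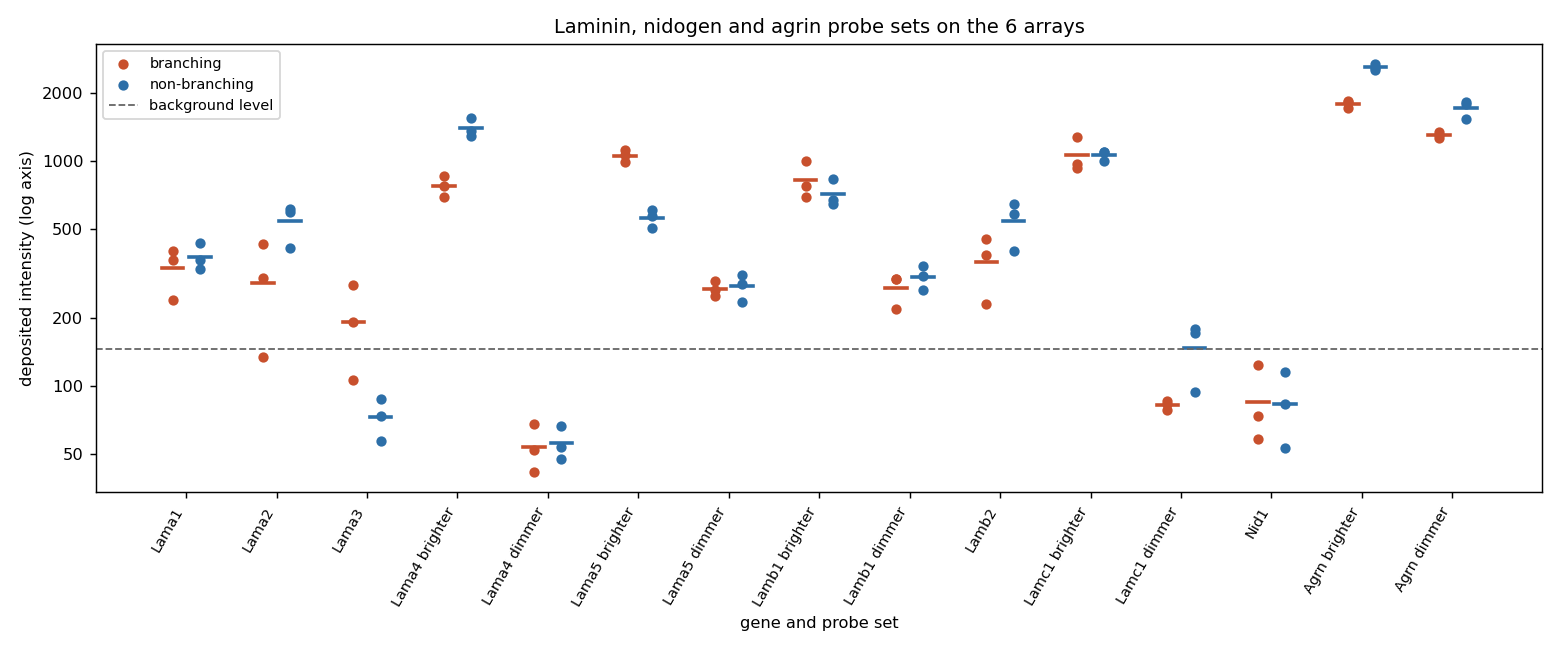
Deposited intensity (log axis) of each of the 15 probe sets on the 3 branching and the 3 non-branching arrays; points are arrays, short bars are region means and the dashed line is the background level of 147. The 2 groups of points are apart for the brighter probe sets of Lama4 and Lama5 and both of Agrn, and the points of the dimmer Lama4 probe set and Nid1 lie under the line on all 6 arrays.

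The 5 alpha chain genes differed in direction and in brightness. Lama5 (Entrez gene 16776) encodes the alpha chain that is widespread in epithelial basement membranes. Its brighter probe set read 1123, 1063 and 987 on the branching arrays and 570, 607 and 503 on the non-branching arrays. Every branching value lay above every non-branching value, and the arrays of each region lay close together. The means were 1058 ± 68.3 (SD, n = 3) and 559.9 ± 52.5, and Lama5 rose by 0.92 ± 0.15 on the log2 scale (limma adjusted p = 0.0162), or 1.89-fold, with a 95% interval of 0.58 to 1.26 on the log2 scale.

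The dimmer Lama5 probe set, of a design that its name marks as less specific for 1 transcript, did not show this. It read 251, 268 and 293 in branching and 284, 238 and 311 in non-branching. These values overlapped, and its log2 difference of -0.03 ± 0.26 was not called (limma adjusted p = 0.976). Within an array, the log2 ratio of the first probe set to the second was 1.75 to 2.16 in branching and 0.70 to 1.35 in non-branching. The ratio differed between regions by 0.95 (two-sided exact permutation test, p = 0.1, the smallest that 3 against 3 arrays allow, and 0.2 after adjustment over the 4 genes tested in this way). With the 2 probe sets averaged, Lama5 differed by 0.44 ± 0.16 and was not called (limma adjusted p = 0.246).

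Lama4 (Entrez gene 16775) encodes an alpha chain known from the basement membranes of vessels and from mesenchymal tissues. Its brighter probe set read 857, 773 and 691 in branching and 1549, 1362 and 1288 in non-branching. No values of the regions overlapped, and the lowest non-branching array was well above the highest branching array. Lama4 fell by 0.86 ± 0.14 on the log2 scale (limma adjusted p = 0.0182), from 1399 ± 135 (SD, n = 3) to 773.7 ± 83.1, which is 1.81-fold, with a 95% interval of -1.18 to -0.53. The dimmer probe set ran from 41.6 to 68.2 over the 6 arrays, below background on each, and was left out of the test as too dim. It gives no reading of Lama4 in either region.

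Lama2 (Entrez gene 16773) encodes the alpha chain of muscle and peripheral nerve basement membranes. It read 427, 303 and 135 in branching and 409, 595 and 615 in non-branching. The regions overlapped through branching replicate 1, and branching replicate 3 was below background and well under the other arrays. The log2 difference was -1.03 ± 0.40 (limma adjusted p = 0.274), larger in size than that of Lama4 but with a wider spread, and it was not called. It ran from -1.39 to -0.56 as single arrays were left out, and the smaller size was without branching replicate 3.

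Lama3 (Entrez gene 16774) encodes the alpha chain of the laminin that anchors stratified and glandular epithelia. Its 1 probe set, of a less specific design, read 193, 107 and 282 in branching and 87.4, 74.0 and 57.2 in non-branching. All non-branching values and 1 branching value were below background, and the regions did not overlap. Because one side was not above background and the probe set was not called (limma adjusted p = 0.255), no fold is given. Lama1 (Entrez gene 16772), which encodes the alpha chain of the early embryonic laminin, read 399, 242 and 365 in branching and 332, 433 and 364 in non-branching. These ranges overlapped, and the log2 difference of -0.19 ± 0.26 was not called (limma adjusted p = 0.804), with a 95% interval of -0.79 to 0.41.

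**Figure D2:**
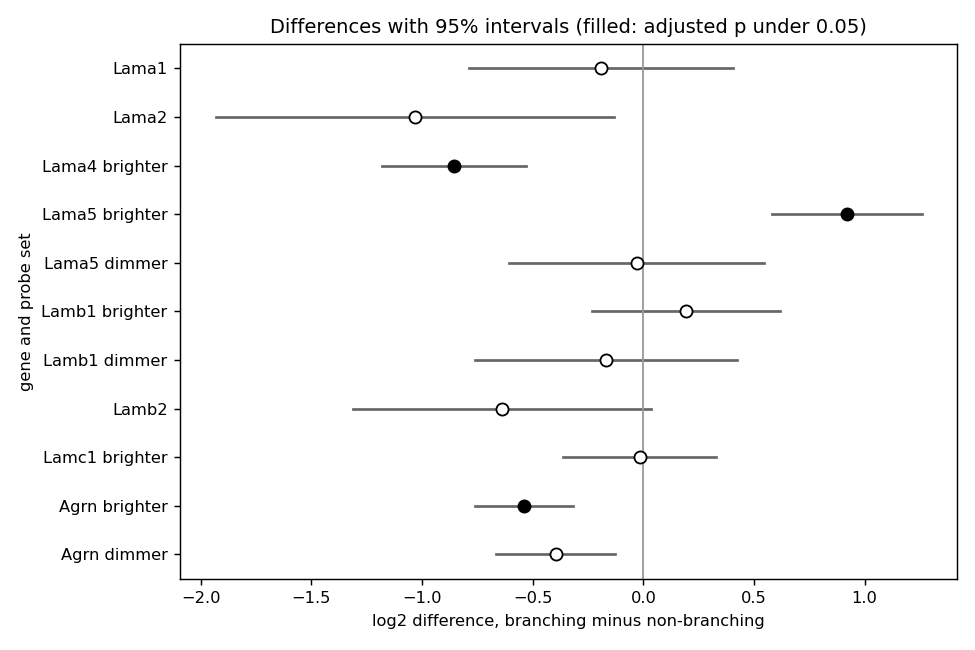
Log2 difference, branching minus non-branching, with its 95% interval for the 11 tested probe sets whose means were above background in both regions; filled points had a limma adjusted p under 0.05. The intervals of the brighter Lama4 probe set, Lama2 and both Agrn probe sets lie below 0, that of the brighter Lama5 probe set lies above 0, and the remaining 6 include 0.

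The beta chain genes showed no called difference. Lamb1 (Entrez gene 16777) encodes the beta chain of most embryonic laminins. Its brighter probe set, of a less specific design, read 1002, 695 and 774 in branching and 672, 836 and 643 in non-branching. Its dimmer probe set read 299, 301 and 221 in branching and 310, 266 and 342 in non-branching. The regions overlapped on both, and the log2 differences had opposite signs, 0.19 ± 0.19 (limma adjusted p = 0.715) and -0.17 ± 0.26 (adjusted p = 0.830). Their ratio differed between regions by 0.36 (two-sided exact permutation p = 0.2, and 0.2 adjusted over 4 genes). Lamb2 (Entrez gene 16779) encodes the beta chain of the neuromuscular junction and the kidney glomerulus. It read 232, 384 and 450 in branching and 584, 401 and 645 in non-branching. Only non-branching replicate 2 fell into the range of the branching arrays, and the log2 difference of -0.64 ± 0.30 was not called (limma adjusted p = 0.371).

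Lamc1 (Entrez gene 226519) encodes the gamma chain shared by most laminins. Its brighter probe set, of a less specific design, read 1276, 975 and 933 in branching and 1002, 1094 and 1094 in non-branching. The regions overlapped, and their means of 1061 ± 187 (SD, n = 3) and 1064 ± 53.2 gave a log2 difference of -0.02 ± 0.15 (limma adjusted p = 0.979). For this probe set, the 95% interval of -0.36 to 0.33 covers smaller differences than those measured for the brighter Lama5 and Lama4 probe sets. The dimmer Lamc1 probe set read 78.4, 83.6 and 86.1 in branching, all below background, and 94.0, 179 and 173 in non-branching. The regions did not overlap, but the probe set was not called (limma adjusted p = 0.479), and no fold is given. The ratio of the brighter to the dimmer Lamc1 probe set differed between regions by 0.77 (two-sided exact permutation p = 0.1, and 0.2 adjusted over 4 genes). This ratio rests on branching values of the dimmer probe set that were below background. Nid1 (Entrez gene 18073), the nidogen gene, ran from 58.5 to 124 in branching and from 52.9 to 115 in non-branching. All 6 values were below background, so Nid1 was not detectable on these arrays and no comparison can be read from it. Nid2, the second nidogen gene and not one of the 10, was above background on all 6 arrays, with means of 210.4 ± 43.3 (SD, n = 3) in branching and 210 ± 31.1 in non-branching, and was not called (limma adjusted p = 0.996).

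Agrn (Entrez gene 11603) was the 1 gene whose regions were apart on 2 probe sets above background. The brighter one read 1842, 1718 and 1827 in branching and 2531, 2607 and 2692 in non-branching. The regions were apart, and the spread within each was the smallest relative to the mean among the called probe sets, 3.78% and 3.09%. Agrn fell by 0.54 ± 0.10 on the log2 scale on this probe set (limma adjusted p = 0.0246), from 2610 ± 80.6 (SD, n = 3) to 1795 ± 67.8, or 1.45-fold. The dimmer one read 1349, 1267 and 1306 in branching and 1837, 1800 and 1539 in non-branching. Its regions were also apart, but its log2 difference of -0.40 ± 0.12 was not called (limma adjusted p = 0.149). The ratio of the probe sets differed between regions by -0.14 (two-sided exact permutation p = 0.2, and 0.2 adjusted over 4 genes). With both probe sets averaged, Agrn differed by -0.47 ± 0.09 and was called (limma adjusted p = 0.0462).

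Ratios between genes on the same array do not depend on how the arrays were scaled. The log2 ratio of Lama4 to Lama5 (their called probe sets), centred on its mean over the 6 arrays, was -0.95 to -0.82 in branching and 0.73 to 1.01 in non-branching. The difference between regions was -1.78, so the ratio of the Lama4 to the Lama5 probe set was 3.42-fold higher in the non-branching region. For Lama5 to Agrn the difference was 1.46, or 2.75-fold, in the other direction, again with no overlap. For Lama4 to Agrn it was -0.32, and the regions lay next to each other without overlap (branching -0.34 to -0.04, non-branching -0.0027 to 0.35). As these ratios come from the values that chose the genes, they are a description with no test.

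Leaving out single arrays kept the direction of the 3 called probe sets but often ended the call. The brighter Lama5 probe set differed by 0.85 to 0.98 over the 6 omissions and passed in 2, those of non-branching replicate 1 (limma adjusted p = 0.0458) and non-branching replicate 2 (0.0420). It did not pass without branching replicate 1 (0.0559), branching replicate 2 (0.0629), branching replicate 3 (0.0620) or non-branching replicate 3 (0.0757). The brighter Lama4 probe set differed by -0.93 to -0.78 and passed without branching replicate 1 (0.0303). It did not pass without branching replicate 2 (0.0563), branching replicate 3 (0.0799), non-branching replicate 1 (0.0620), non-branching replicate 2 (0.0680) or non-branching replicate 3 (0.0623). The brighter Agrn probe set differed by -0.56 to -0.51 and passed without branching replicate 1 (0.0461). It did not pass without branching replicate 2 (0.0831), branching replicate 3 (0.0917), non-branching replicate 1 (0.0573), non-branching replicate 2 (0.0952) or non-branching replicate 3 (0.129). No call of the 3 held with a variance estimate that ignored signal level, where limma adjusted p was 0.114 for Lama5, 0.130 for Lama4 and 0.217 for Agrn.

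**Figure D3:**
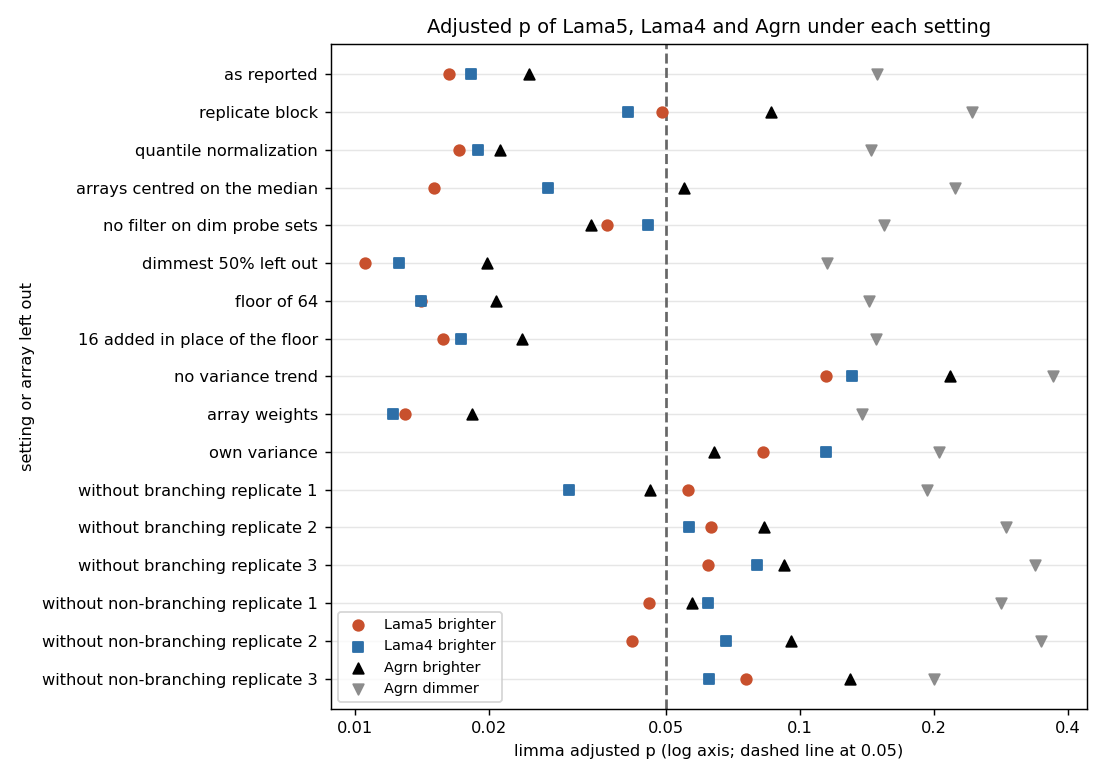
Limma adjusted p (log axis, dashed line at 0.05) of the brighter probe sets of Lama5 and Lama4 and both Agrn probe sets as reported, under 10 other settings and with each array left out. The points of Lama5 run from 0.0105 to 0.114, those of Lama4 from 0.0122 to 0.130 and those of the brighter Agrn probe set from 0.0183 to 0.217, and the dimmer Agrn probe set stays above 0.05 throughout.

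The promoter windows of the 2 called genes that RefSeq's table for build GRCm38.p6 holds, Lama5 and Agrn, are shown. Their called probe sets moved in opposite directions. A window runs from 250 bases before to 50 bases after an annotated start, is given 5' to 3' on the gene's strand, and has the GC box in capitals (the letters GGGCGG on either strand, so also CCGCCC).
Lama5, chr2:180225810-180226109, minus strand: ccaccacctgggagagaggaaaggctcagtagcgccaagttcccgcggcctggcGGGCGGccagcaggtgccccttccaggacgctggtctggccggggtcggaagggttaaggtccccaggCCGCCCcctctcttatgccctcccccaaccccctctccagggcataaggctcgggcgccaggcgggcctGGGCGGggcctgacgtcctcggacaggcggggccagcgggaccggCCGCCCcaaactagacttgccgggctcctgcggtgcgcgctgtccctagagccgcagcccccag
Agrn, outer start, chr4:156197439-156197738, minus strand: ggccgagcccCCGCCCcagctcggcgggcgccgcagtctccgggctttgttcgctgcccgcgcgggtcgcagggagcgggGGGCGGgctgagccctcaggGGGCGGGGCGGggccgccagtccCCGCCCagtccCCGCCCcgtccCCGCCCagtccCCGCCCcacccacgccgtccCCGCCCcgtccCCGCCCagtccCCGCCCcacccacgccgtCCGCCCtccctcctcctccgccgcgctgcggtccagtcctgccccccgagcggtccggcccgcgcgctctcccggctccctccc
Agrn, inner start, chr4:156186210-156186509, minus strand: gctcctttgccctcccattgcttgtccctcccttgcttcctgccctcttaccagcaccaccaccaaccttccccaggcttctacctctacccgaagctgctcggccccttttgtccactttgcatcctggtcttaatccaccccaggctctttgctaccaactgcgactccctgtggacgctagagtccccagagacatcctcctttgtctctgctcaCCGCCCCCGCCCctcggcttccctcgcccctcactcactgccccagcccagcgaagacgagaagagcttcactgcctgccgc

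The window at the outer Agrn start held 12 GC boxes, of which 1 pair overlapped, and most of them sat in a run of near repeats. Of the 32841 promoter windows in the table, 35.7% held at least 1 GC box and 7 held 12 or more. The Lama5 window held 4 GC boxes, a number reached by 5.48% of windows, and the inner Agrn start 2. Both genes lacked a TATA box (TATAAA, found in 13.6% of windows) and a CCAAT box (CCAAT, 37.4%) in these windows. None of the GC boxes overlapped an E-box (CANNTG, 72.3%), of which Lama5 had 2, the inner Agrn start 1 and the outer Agrn start 0. The GC content was 72.7% for Lama5, 83.3% and 61.3% for the outer and inner Agrn starts, and 52.7% for the median window. The other members in the table, Lama2, Lamb1, Lamb2 and Nid1, held 1, 2, 0 and 1 GC boxes. A match of letters is a description and not a binding site, and the arrays do not say which Agrn start was used.

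No cell surface receptor gene of laminin that was tested was called. Bcam, also on the list, had no probe set with its symbol alone. Of 9 receptor genes tested, integrin subunits, dystroglycan and syndecans among them, 0 were called by limma in either direction, and at an unadjusted p under 0.05 there was 1 higher and 1 lower. Their median log2 difference was -0.12, against -0.0046 over all probe sets tested, and it ran from -0.29 without branching replicate 1 to -0.06 without non-branching replicate 1. Itga3, the integrin alpha subunit that pairs with Itgb1 to bind the laminins carrying the Lama5 chain, read 776 ± 167 (SD, n = 3) in branching and 556.6 ± 48.3 in non-branching (log2 difference 0.46 ± 0.20, limma adjusted p = 0.337), and its regions overlapped. Sdc4, a syndecan gene, had a mean of 63.3 in branching, with all 3 arrays below background, and 194 in non-branching, and was not called (limma adjusted p = 0.322). Itga6 was below background on all 6 arrays. Receptor genes of the list are also receptors for other matrix proteins.

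Other structural genes of the basement membrane were called in 1 direction only. Of 17 on the array, 16 were tested and 2 were called lower in branching, where the share over all probe sets was 1.13%. Called higher were 0 (also 0 at an unadjusted p under 0.05 by limma), and 14 were not called. The median log2 difference was -0.17, or -0.11 with values below background raised to it, against -0.0046 and 0 over all probe sets tested, and it was -0.08 without branching replicate 2. Smoc2, which encodes a secreted calcium-binding protein of the SPARC family, fell by 1.44 ± 0.18 on the log2 scale (limma adjusted p = 0.00503), from 2012 ± 498 (SD, n = 3) to 727.3 ± 68.5, and kept its call in all 6 omissions. Smoc2 was not called when the variance trend was dropped or each probe set's own variance was used (at most 0.121). Fbln2, the fibulin gene of vessel walls and basement membranes, fell by 0.94 ± 0.17 (adjusted p = 0.0229), from 1525 ± 200 to 799.2 ± 139. Fbln2 passed in 2 of the 6 omissions and not without branching replicates 1 or 2 or non-branching replicates 1 or 3, where its highest adjusted p was 0.114, nor without the filter on dim probe sets or under those variance settings (at most 0.180). The tested collagen IV genes and the perlecan gene were among the 14.

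No tested gene for agrin's partners at the muscle synapse was called. Lrp4 and Dok7, also on the list, had no probe set with their symbol alone. Of 10 on the array, 6 were tested and 0 were called by limma in either direction, also 0 at an unadjusted p under 0.05. The median log2 difference was 0.05, or -0.12 with each gene's probe sets averaged, and it ran from -0.07 without non-branching replicate 2 to 0.18 without non-branching replicate 1. Musk, the receptor kinase through which agrin acts on muscle, was below background on all 6 arrays. Dag1, the dystroglycan gene, read 1461 ± 68.8 (SD, n = 3) in branching and 1601 ± 133 in non-branching (log2 difference -0.13 ± 0.12, limma adjusted p = 0.680). The acetylcholine receptor subunit gene Chrne, Rapsn, which encodes the protein that clusters these receptors, and the utrophin gene Utrn were also above background on all 6 arrays. Their means were 1658, 576.4 and 199.1 in branching and 1714, 556.4 and 219.6 in non-branching, and the regions overlapped for each. The Chrne probe set is of a less specific design. Chrng, another acetylcholine receptor subunit gene, had means of 189 and 121, with 1 of 6 arrays above background, and was not called (limma adjusted p = 0.731). Chrnd, with means of 148 and 135, was above background on 2 branching arrays and 1 non-branching array and was not called (limma adjusted p = 0.890). The subunit genes Chrna1 (means of 30.1 and 70.0) and Chrnb1 (94.2 and 46.9) were left out of the test as too dim.

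Of 19 genes for proteases and inhibitors that act on matrix, 15 were tested, 3 were called lower in branching and 0 higher (also 0 at an unadjusted p under 0.05 by limma). The median log2 difference was 0.08, with 9 of the 15 above 0, and it was -0.28 without branching replicate 1 and -0.57 when probe sets in the lower 50% of mean signal were dropped. Plat, the tissue plasminogen activator gene, fell by 0.82 ± 0.12 on the log2 scale (limma adjusted p = 0.00856), from 2188 ± 188 (SD, n = 3) to 1235 ± 81.0. Bmp1, which encodes a metalloproteinase that processes procollagens and some laminin chains, fell by 0.79 ± 0.15 (adjusted p = 0.0265), from 2086 ± 162 to 1217 ± 215. Mmp14, a membrane-anchored matrix metalloproteinase gene, fell by 0.60 ± 0.09 (adjusted p = 0.0131), from 4296 ± 215 to 2828 ± 168. Plat lost its call without non-branching replicate 3 (0.0521). Mmp14 lost its call without branching replicate 3, non-branching replicate 2 or non-branching replicate 3 (at most 0.0757), and Bmp1 in every omission but that of branching replicate 1 (at most 0.107). The 3 calls were all lost without non-branching replicate 3, without the variance trend and with own variances.

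**Figure D4:**
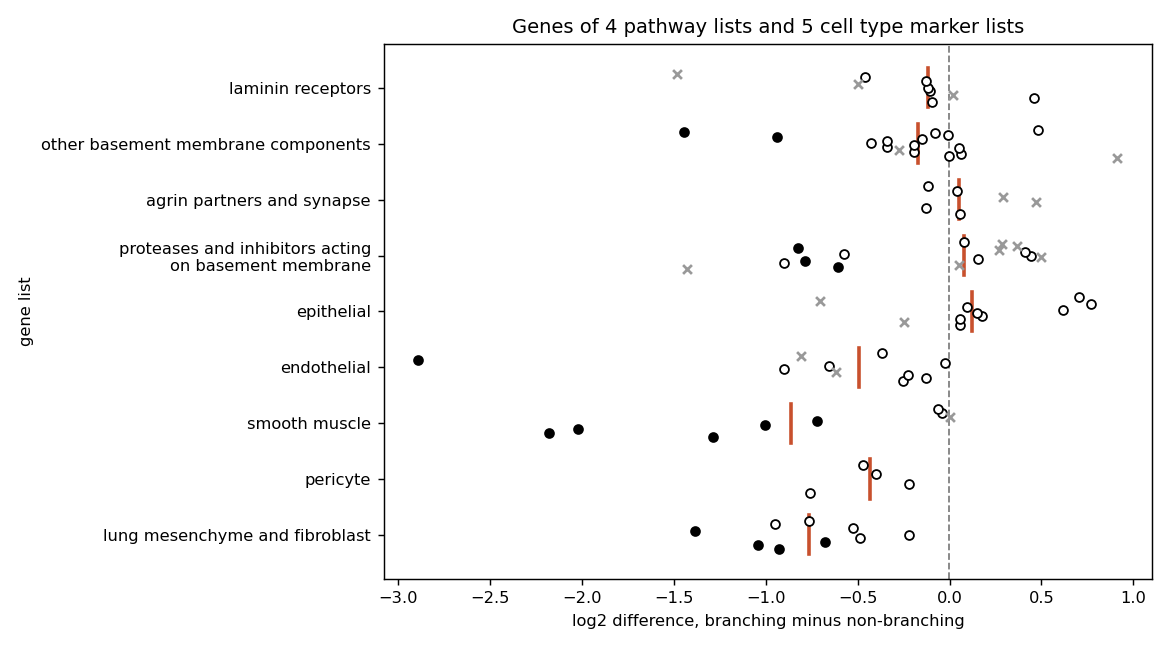
Log2 difference, branching minus non-branching, of the tested genes of 4 pathway lists and 5 cell type marker lists. Filled circles had a limma adjusted p under 0.05 and open circles did not. Grey crosses were not called and had a region mean below background. The filled endothelial circle, Vwf, also had a branching mean below background. Short bars are list medians and the dashed line is the median of all probe sets tested. The bars lie between -0.17 and 0.12 for the pathway and epithelial lists and between -0.86 and -0.43 for the other 4.

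Markers of the cell types from which these chains are known were read on the same arrays. Of 10 epithelial marker genes tested, 0 were called by limma (1 higher and 0 lower at an unadjusted p under 0.05), with a median log2 difference of 0.12 and a summed signal of 4355 to 5463 in branching and 3737 to 4442 in non-branching. The median moved with single arrays, from 0.04 without non-branching replicate 1 and 0.07 without branching replicate 3 to 0.25 without non-branching replicate 3 and 0.28 without branching replicate 2. The 1 higher at an unadjusted p was Cldn6 (0.62 ± 0.14, limma adjusted p = 0.0647), and its regions did not overlap. When probe sets in the lower 50% of mean signal were dropped, 1 epithelial marker was called higher. The part of epithelial cell number in the difference of 0.92 of the brighter Lama5 probe set was not tested. Of 10 endothelial marker genes 1 was called lower and 0 higher, all 10 had a negative difference, the median was -0.49 (-0.26 with values raised to background or with each gene's probe sets averaged), and the summed signal was 3974 to 4650 in branching and 5370 to 5460 in non-branching. That median was -0.23 without branching replicate 1. The 1 call, Vwf, had means of 52.0 in branching, below background on all 3 arrays, and 383 in non-branching. It was lost without non-branching replicate 2. Of 8 smooth muscle markers 5 were called lower and 0 higher, with a median of -0.86 and summed signals of 7211 to 7746 and 12590 to 13680. Their count fell to 3 without branching replicate 3, to 2 when non-branching replicate 3 was omitted, to 1 without the variance trend and 0 with own variances. Of 9 mesenchyme and fibroblast markers 4 were called lower and 0 higher, with a median of -0.76 (-0.60 with probe sets averaged) and summed signals of 17480 to 17830 and 32250 to 33110. Their count was 3 or 4 over the omissions, 1 without the variance trend and 2 with own variances.

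Of 5 cartilage markers tested 3 were called lower and 0 higher, with a median of -0.82 and summed signals of 2813 to 3330 and 5671 to 6190. Of these 5, 4 had a negative difference. Col2a1, above background on all 6 arrays, had a positive one (0.25 ± 0.28, limma adjusted p = 0.758). Matn1, Acan and Hapln1 were below background on all 6 arrays. With single arrays left out 1 or 2 cartilage markers were called, with 1 each without non-branching replicates 1, 2 or 3 and with the replicate block. Of 7 cardiac muscle markers tested 1 was called lower and 0 higher, all 7 had a negative difference, the median was -0.43 and the summed signals were 1921 to 2032 and 3137 to 4049, with Myh6, Myl2 and Nkx2-5 below background on all 6 arrays. That call was lost without non-branching replicate 1 or 3, and the median changed to -0.64 when branching replicate 1 was omitted and to -0.67 when non-branching replicate 3 was. Lama4 and Agrn lay in the same direction as the medians of the endothelial, smooth muscle, mesenchymal, cartilage and cardiac markers. The part of these tissues in the Lama4 and Agrn differences was not tested. For pericytes 0 of 4 markers were called (0 higher and 2 lower at an unadjusted p under 0.05 by limma), with a median of -0.43 and summed signals of 2013 to 2310 and 2795 to 3230. For neural crest, glial and neuronal markers, cells that also make agrin and laminins, 1 of 8 tested was called lower and 0 higher, with a median of -0.11 (-0.48 with probe sets averaged, and -0.30 to -0.04 as single arrays were left out) and summed signals of 4787 to 5216 and 6053 to 6430, and Phox2a, Elavl4, Nefl and Foxd3 were below background on all 6 arrays. For mesothelium, which lines the lung surface, 0 of 3 tested markers were called (also 0 at an unadjusted p under 0.05), with a median of 0.27 and summed signals of 1586 to 1916 and 1287 to 1745. Red blood cell markers lay in the other direction, with 4 of 8 called higher and 0 lower in branching, a median of 0.58 and summed signals of 138800 to 153900 and 89690 to 97200, and their part in the differences of the members was not tested. Their count fell to 2 without branching replicate 2 or 3 or any 1 non-branching array and with the replicate block, and to 0 without the variance trend or with own variances. For skeletal muscle 1 of 6 tested markers was called lower (0 without non-branching replicate 3) and 0 higher, with a median of -0.09 that ran from -0.50 without branching replicate 2 to 0.12 without non-branching replicate 2, and summed signals of 1409 to 1828 and 2041 to 2560. For leukocytes 0 of 7 were called by limma (also 0 at an unadjusted p under 0.05), with a median of 0.22 that ran from 0.09 without branching replicate 1 to 0.49 without branching replicate 3, and summed signals of 2002 to 2066 and 1716 to 2046. No marker was listed at 0 on any array.

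By the smallest root mean square difference of log2 values over the 6 arrays, each probe set centred on its own mean, the genes whose pattern was most like that of the brighter Lama5 probe set were Mycn (0.06), Ctps (0.09) and Mtm1 (0.10, a less specific probe set), among 6797 genes compared. Mycn, a proto-oncogene transcription factor gene, had means of 1086 in branching and 602 in non-branching, close to the change of Lama5. The nearest to the brighter Lama4 probe set were Fshb (0.07), whose means of 73.7 and 135 were below background, Hsd17b11 (0.09) and the protease gene Bmp1 (0.09). The nearest to the brighter Agrn probe set were Col5a1 (0.05), a fibrillar collagen gene, P3h3 (0.06), a collagen-modifying enzyme gene, and Qars (0.06), a transfer RNA synthetase gene. These distances rest on 6 arrays in 2 regions, so any gene with a like difference between regions ranks high.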

How the data were processed

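RNA from 3 branching and 3 non-branching samples was measured on 6 one-colour arrays. The deposited values are intensity on a linear scale. How the authors computed these values is not stated in the sources used here. The mean of each array without its lowest and highest 2% was 500.3, which shows that the arrays had been scaled before deposit. Of 12488 probe sets, 66 controls were left out, and 10833 of the other 12422 had 1 gene symbol in the platform annotation, 396 several and 1193 none. Values below 16 were set to 16, log2 was taken, and the dimmest 25% of probe sets by mean log2 value were left out. On the remaining 9316, limma 3.58.1 (R 4.3.3) was run (lmFit, eBayes with a variance trend, two-sided) and adjusted by Benjamini-Hochberg. The code was tested on simulated data. Genes outside the 10 members were read by their brightest probe set.

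The members, the lists, the rule for naming genes (called list genes, at most 4 a list, or the 2 with the smallest p, and the 3 nearest patterns to each called member) and the alternatives were chosen with earlier results of these data known. Itga6, Musk, Nid2, Chrne, Chrnd, Chrna1, Chrnb1, Rapsn, Utrn, Cldn6, Col2a1 and the markers below background were named after their values were seen. The motifs were chosen after the data were seen. With 3 arrays per region, their number limits the precision. Of the 10 members, 6 matched the RefSeq promoter table, with 7 windows.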

Additional observations from a re-analysis of the deposited data

How the results depend on the processing

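The differences of the brighter probe sets of Lama5 and Lama4 and of both Agrn probe sets kept their sign under all 16 alternatives. Deviations of same-numbered arrays from their region means correlated at -0.015 to 0.013, not above those of other pairs (-0.049 to 0.052). These values do not show whether same-numbered samples came from the same embryos or litters, which the sources do not state. With the replicate number as a block, 44 probe sets were called higher, and 1 member lower since the brighter Agrn probe set was not called (adjusted p = 0.0861), as also with arrays centred on the median, which called 1 member lower (Agrn adjusted p = 0.0548). Without a filter on dim probe sets 38 were called higher and 62 lower. Without the variance trend 5 were higher and 17 lower, and with each probe set's own variance 2 and 9. Under both settings 0 members were called by limma or by that test. At an unadjusted p under 0.05, 2 were higher and 4 or 3 lower. The share of all probe sets at that cut was not computed, so these counts have no general rate beside them. As single arrays were left out, 16 to 69 probe sets were called higher and 38 to 98 lower, with 0 to 1 members higher and 0 to 2 lower. Near-zero differences changed sign. Centred on the median, the dimmer Lama5 probe set was 0.0062 and the brighter one of Lamc1 0.0206, and over the omissions they ran from -0.1376 to 0.0545 and from -0.1561 to 0.0697, with Lama1 from -0.3322 to 0.0276. With probe sets averaged per gene, 6188 genes were tested, and 0 members were called higher and 1 lower. The share called over all genes of that fit was not computed. The causes were not tested. Nid1, Lama3 in non-branching and the dimmer probe sets of Lama4 and Lamc1 were limited by signal near background.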
